A study of Sus scrofa with 6 samples.

Results

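Autophagy is the route by which a cell wraps its own proteins and organelles in a membrane sac, the autophagosome, and delivers them to the lysosome for breakdown. A kinase complex and a lipid kinase complex start the membrane, ubiquitin-like conjugation systems attach LC3 and GABARAP proteins to it, and cargo receptors hold the material to be removed against those proteins. In mouse oocytes and early embryos the pathway is known for clearing maternal proteins after fertilisation.

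The genes described here are 39 named components of that pathway, chosen by gene name, of which 38 stand under their own names in a table of 19271 named rows. They comprise 15 genes of initiation and membrane growth, 15 of conjugation and 8 receptors. The listed name that was not found, ATG9A, was matched through its Ensembl identifier and is described apart. All 38 passed the filter on low counts, so none was left out of the tests.

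The libraries were made from pig oocytes of prepubertal gilts, freed of the cumulus cells around them. Oocytes came from large follicles, 3 to 6 mm across, or from small follicles, 1.5 to 1.9 mm across, with 3 libraries per group. The ovaries were collected at an abattoir, and the series set the groups apart to compare oocytes of different developmental competence. No treatment or genotype differs between the groups. The labels give 360 oocytes without saying whether that is per group or in all, and they do not say whether the replicates were separate collections. The p-values here rest on the variation from library to library, which may be technical.

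Total counts ranged from 8015357 to 56887282 in the large-follicle libraries and from 33298449 to 55342036 in the small-follicle libraries. The shallowest, large-follicle library 3, stood apart on the first principal component. Over all genes, edgeR's quasi-likelihood test called 9 of 14091, a share of 0.0639% (0.0142% higher and 0.0497% lower in large-follicle oocytes), at a Benjamini-Hochberg adjusted p under 0.05. Oocyte markers (10 genes such as GDF9, BMP15 and ZP3) summed to between 12622 and 14892 CPM (reads of a gene relative to the scaled library total) in the large-follicle group and between 17104 and 18343 CPM in the small-follicle group. The groups did not overlap, and the exact two-sided permutation p of 0.1 is the smallest that 3 against 3 libraries can give. Of these 10 markers, only BTG4 had a higher mean in large-follicle oocytes. It stood at 1040, 1014 and 1149 CPM in large-follicle and 904, 946 and 818 CPM in small-follicle libraries 1, 2 and 3. Granulosa and cumulus markers (9 of 12 listed in the table) summed to 127 to 185 CPM in large-follicle and 120 to 197 CPM in small-follicle libraries (exact p = 0.8), with none at 0 in all libraries. KITLG, which encodes the KIT ligand, gave 88.3 to 110 CPM of that sum in large-follicle and 96.3 to 106 CPM in small-follicle libraries, and FSHR, the follicle-stimulating hormone receptor gene, stayed under 2 CPM in every library. Other granulosa genes varied severalfold between libraries of a group. INHBA, an inhibin and activin subunit gene, stood at 17.4, 28.0 and 64.9 CPM in large-follicle libraries 1, 2 and 3 and at 54.7, 41.0 and 9.04 CPM in small-follicle libraries 1, 2 and 3. The gap junction gene GJA1 stood at 3.68, 1.56 and 19.4 CPM in the large-follicle and 19.6, 8.76 and 1.62 CPM in the small-follicle libraries. For both these genes and INHA, large-follicle library 3 was the highest of its group and small-follicle library 3 the lowest of its own. Theca and stromal markers summed to 13.4 to 15.5 CPM in large-follicle and 16.0 to 17.2 CPM in small-follicle libraries (exact p = 0.1), and blood, immune and endothelial markers to 8.15 to 11.5 CPM in the large-follicle and 8.57 to 9.80 CPM in the small-follicle group (exact p = 1). The part of these markers in the results below was not tested. In bulk samples, fewer cells of a type and less RNA per cell cannot be told apart.

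Autophagy transcripts were abundant in both groups, and their combined level was nearly the same. Summed over the 38 genes, the deposited TPM values (the authors' relative transcript abundance, scaled for gene length and depth) came to 3378, 3336 and 3337 in large-follicle libraries 1, 2 and 3 and to 3337, 3331 and 3409 in small-follicle libraries 1, 2 and 3. That is 0.334% to 0.338% of all TPM in large-follicle and 0.333% to 0.341% in small-follicle libraries, and the groups overlap. Of the 38 genes, 30 had a mean TPM above the median of all genes tested, which was 18.4 TPM, and the median of the 38 was 47.9 TPM.

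The order of the levels was led by cargo receptors and by conjugation genes. TAX1BP1, a receptor for ubiquitin-tagged cargo, averaged 502 ± 9.66 TPM in large-follicle and 437 ± 14.0 TPM in small-follicle oocytes (mean ± SD, n = 3 each). SQSTM1, which encodes the receptor p62, followed with 405 ± 54.9 TPM in large-follicle and 416 ± 3.99 TPM in small-follicle oocytes (SD, n = 3 each), and the LC3-processing protease gene ATG4A with 421, 393 and 362 TPM in the large-follicle libraries and 373, 373 and 386 TPM in the small-follicle libraries. SQSTM1 and ATG4A overlap in level in the large-follicle libraries but not in the small-follicle ones. Next stood ATG16L1, whose protein places the conjugation machinery on the membrane, at 218, 238 and 221 TPM in large-follicle and 208, 213 and 220 TPM in small-follicle libraries, then GABARAPL2 and RETREG3. In all, 9 genes had a mean over 100 TPM and 4 a mean under 5 TPM: RETREG1, ATG4C, ATG10 and WIPI1.

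**Figure D1:**
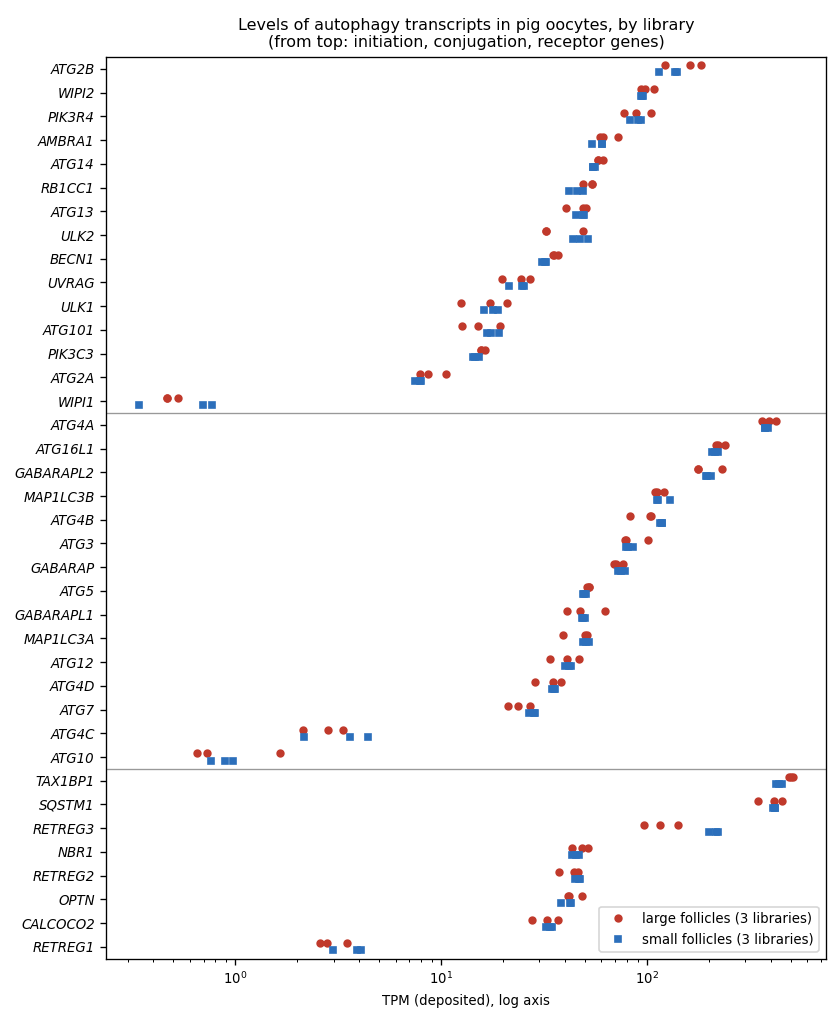
Deposited TPM of each of the 38 autophagy genes on a log axis, with 1 point per library (red circles, large follicles; blue squares, small follicles) and genes ordered by mean level within initiation, conjugation and receptor genes. The libraries of both groups lie close together for most genes, and RETREG3 is the receptor gene whose large-follicle points lie clearly left of the small-follicle points.

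No autophagy gene passed the adjustment over all genes in edgeR. Without adjustment, 5 of 38 had a p under 0.05, a share of 13.2%, against a background of 18% of all genes tested. The 3 with higher means in large-follicle oocytes were RB1CC1, BECN1 and TAX1BP1 (background 9.85% in that direction), and the 2 with lower means were RETREG3 and ATG4B (background 8.17%). DESeq2's test called 1 of the 38, RETREG3, against 5.12% of all genes. The median log2 difference, large minus small follicles, was -0.0088 over the 38 genes and 0.0039 over all genes tested, and the mean was higher in large-follicle oocytes for 19 genes and lower for 19. The difference was under 0.2 on the log2 scale in either direction for 27 of 38 genes (71.1%), where the background was 60.3%. It exceeded 0.5 for 1 gene, against 9.69% of all genes. The groups did not overlap for 12 of the 38 genes (background 23.7% over both directions), of which 10 lay higher and 2 lower in large-follicle oocytes (background 12.1% and 11.6%). That split depended on the scaling: with library size alone 4 lay higher and 5 lower (background 8.61% and 15.4%), and on the deposited TPM 5 and 2 (10.2% and 12.2%). For 29 of the 38 genes (76.3%) the 95% interval of the difference lay within 0.5 log2 units of 0, against 54.9% of all genes tested. The exceptions among the 38 were RETREG3, ULK2, ATG101, ATG2B, WIPI1, ATG4B, ATG4C, ATG10 and RETREG1. The backgrounds are not matched for abundance. The 38 genes had a median of 47.9 TPM and a median SE of 0.103, against 18.4 TPM and 0.125 for all genes tested. The part of abundance in these shares was not tested.

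**Figure D2:**
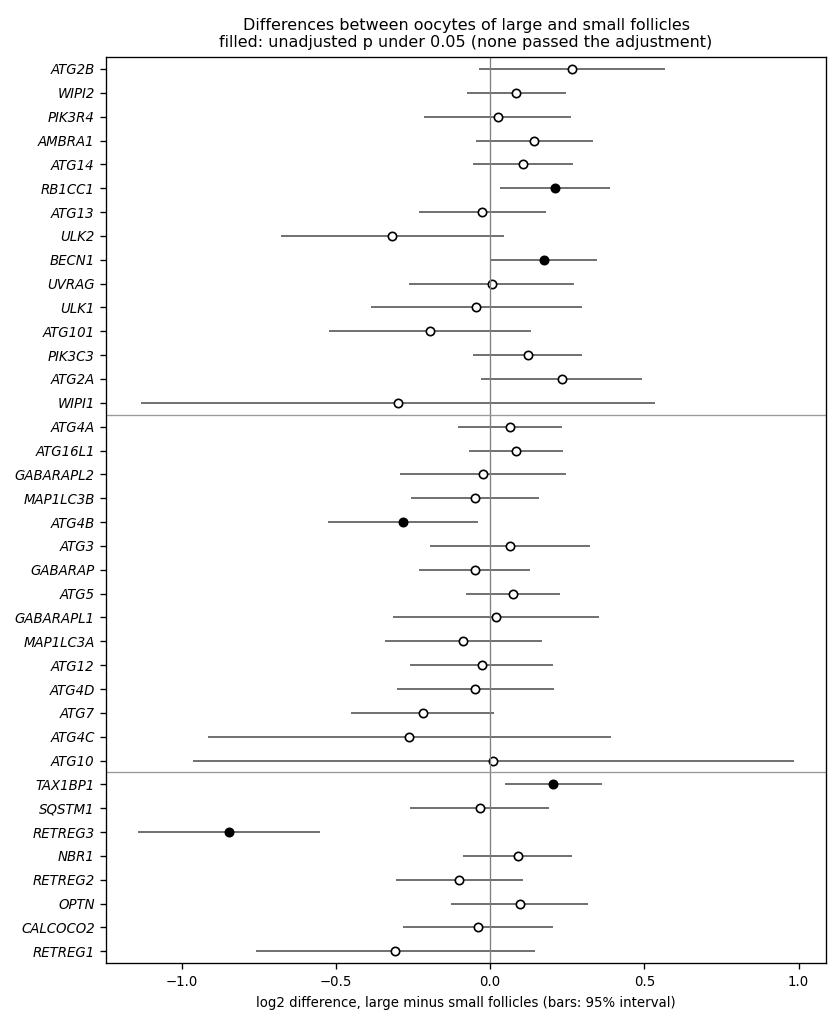
Log2 difference, large minus small follicles, of the 38 autophagy genes from edgeR, with 95% intervals as bars; filled points had an unadjusted p under 0.05, and none passed the adjustment. RETREG3, at -0.85, lies apart from the other 37 genes, which lie between -0.32 and 0.27.

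RETREG3 had the difference of greatest size among the 38. It encodes a reticulon-like protein of the endoplasmic reticulum that, in human and mouse cells, binds LC3 and GABARAP proteins and takes part in ER-phagy, the removal of endoplasmic reticulum by autophagy. RETREG3 stood at 146, 97.4 and 122 CPM in large-follicle libraries 1, 2 and 3, and at 222, 209 and 225 CPM in small-follicle libraries 1, 2 and 3. Every large-follicle library lay below every small-follicle library, and the large-follicle libraries also differed more among themselves. Large-follicle oocytes averaged 122 ± 24.4 CPM, and small-follicle oocytes 218 ± 8.45 CPM (SD, n = 3 each). The large-follicle mean was thus 55.8% of the small-follicle mean.

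The log2 difference of RETREG3 was -0.85 (SE 0.13; 95% interval -1.14 to -0.55) and the adjusted p in edgeR was 0.0677, short of the threshold of 0.05. It ranked 16th by p of 14091 genes. The adjusted p ranged from 2.76e-07 with DESeq2's test to 0.362 without small-follicle library 2 over all alternatives, and the log2 difference from -1.01 to -0.70. The gene was the only one of the 38 to pass in edgeR without a filter on low counts (background 0.27%), with a minimum of 5 CPM (0.202%), with the replicate number as a block (0.17%), after thinning to the shallowest library (0.258%) and with lengths corrected for (0.291%). With scaling by library size alone it did not pass (adjusted p = 0.0506, background 0.0994%). Nor did it pass when edgeR used the size factors of DESeq2, where 0 of all genes tested passed (2525 at an unadjusted p under 0.05). It passed without large-follicle library 1 (adjusted p = 0.0182, background 0.533%) and without large-follicle library 3 (0.0422, background 13.2%) in edgeR. It missed the threshold without large-follicle library 2 (0.142) and without small-follicle libraries 1 (0.319), 2 (0.362) or 3 (0.166), and in these 4 fits 0 of all genes tested passed (1448 to 1918 at an unadjusted p under 0.05).

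RETREG3 lies on chromosome 12 of assembly Sscrofa11.1 from 20220993 to 20243299, and no other gene of the RefSeq table overlaps it. BECN1, another of the 38 genes, lies on the same chromosome from 20041914 to 20054249, and NBR1 from 19755733 to 19789014. The genes next to RETREG3 had smaller differences. PSMC3IP, 944 bases away, differed by -0.17 (SE 0.12), MLX by -0.098 (SE 0.081), COASY by -0.18 (SE 0.14) and ATP6V0A1, which encodes a subunit of the lysosomal proton pump, by -0.039 (SE 0.069). None of these 4 passed the adjustment, with adjusted p of 0.479, 0.550, 0.527 and 0.811 by edgeR in that order.

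The relatives of RETREG3 had means in the same direction. RETREG2 stood at 38.9, 39.2 and 33.2 CPM in large-follicle libraries 1, 2 and 3 and at 38.4, 41.1 and 40.7 CPM in small-follicle libraries 1, 2 and 3. The groups overlap, and the log2 difference was -0.10 (SE 0.090; 95% interval -0.30 to 0.10). RETREG1, the best known ER-phagy receptor of the family, was far scarcer, at 3.83, 2.75 and 3.09 CPM in large-follicle and 4.37, 4.29 and 3.21 CPM in small-follicle libraries. Its groups overlap too (log2 difference -0.31, SE 0.20). All 3 genes kept a lower mean in large-follicle oocytes under every alternative run.

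Within the family the make-up differed as well. The deposited TPM of RETREG1, RETREG2 and RETREG3 summed to 189, 145 and 156 in large-follicle libraries 1, 2 and 3 and to 266, 251 and 271 in small-follicle libraries 1, 2 and 3. RETREG3 made up 74.6%, 66.5% and 74.3% of that sum in the large-follicle libraries and 81.7%, 79.8% and 81.5% in the small-follicle libraries. The ratio of RETREG3 to RETREG2 in TPM was 2.79 ± 0.602 in large-follicle and 4.61 ± 0.300 in small-follicle oocytes (SD, n = 3 each), and its groups did not overlap. These ratios rest on the same RETREG3 counts as the difference above.

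**Figure D3:**
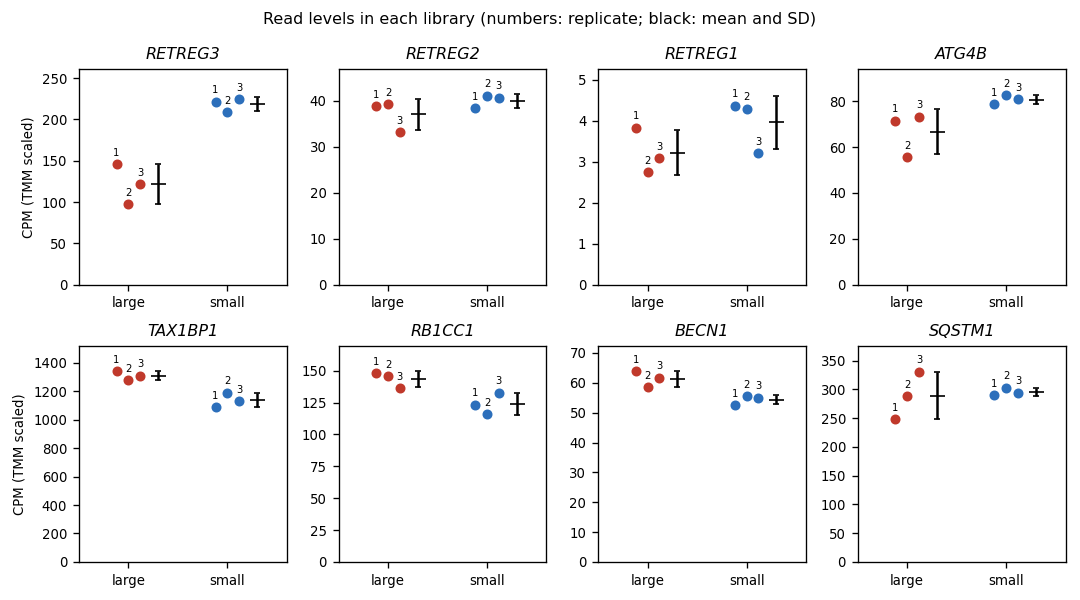
CPM (scaled by TMM factors) of RETREG3, RETREG2, RETREG1, ATG4B, TAX1BP1, RB1CC1, BECN1 and SQSTM1 in each library, numbered by replicate, with large follicles left of small follicles and the mean and SD in black; each axis starts at 0. RETREG3 separates the groups most widely, at 97.4 to 146 CPM against 209 to 225 CPM, and SQSTM1 spreads widely within the large-follicle group.

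The receptors of ubiquitin-tagged cargo had log2 differences on both sides of 0, and they were not tested against one another. TAX1BP1 stood at 1343, 1278 and 1310 CPM in large-follicle libraries 1, 2 and 3 and at 1090, 1189 and 1129 CPM in small-follicle libraries 1, 2 and 3. Every large-follicle library was above every small-follicle library, and the log2 difference was 0.21 (SE 0.069; 95% interval 0.051 to 0.36), which did not pass (adjusted p = 0.171 by edgeR). SQSTM1 stood at 249, 288 and 331 CPM in large-follicle and 290, 303 and 294 CPM in small-follicle libraries. Its small-follicle values lie inside the spread of the large-follicle values, and the difference was -0.034 (SE 0.10). The ratio of TAX1BP1 to SQSTM1 in TPM was 1.48, 1.21 and 1.08 in large-follicle and 1.03, 1.08 and 1.05 in small-follicle libraries. NBR1, a receptor related to p62, differed by 0.090 (SE 0.077), OPTN, a receptor for mitochondria and bacteria, by 0.096 (SE 0.097), and CALCOCO2, which encodes NDP52, by -0.039 (SE 0.11). Over the 8 receptor genes the median log2 difference was -0.036.

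Genes of initiation mostly had slightly higher means in large-follicle oocytes, with 10 of 15 higher and a median log2 difference of 0.086. Of all genes tested, 50.8% had a higher mean. The groups did not overlap for 7 of the 15, all higher in large-follicle oocytes (46.7%, against 12.1% of all genes tested in that direction). That count depended on the scaling. With library size alone it was 3 of 15, RB1CC1, BECN1 and PIK3C3, against 8.61% of all genes, and the median was 0.034, where the median of all genes was -0.049. On the deposited TPM it was again 3 of 15, BECN1, PIK3C3 and ATG14, against 10.2% of all genes. The counts on these other scales were chosen after seeing the data. Initiation genes were also long: their relative length, implied by the authors' counts and TPM, ran from 0.41 (ATG14) to 1.37 (AMBRA1) on the log2 scale. With each library corrected for gene length, the initiation median was 0.068. The part of gene length in the non-overlap counts was not tested.

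In the ULK complex, which receives nutrient signals, RB1CC1 encodes the scaffold protein FIP200. RB1CC1 stood at 148, 146 and 136 CPM in large-follicle libraries 1, 2 and 3 and at 123, 116 and 133 CPM in small-follicle libraries 1, 2 and 3. The groups did not overlap, and the difference was 0.21 (SE 0.078; adjusted p = 0.203 by edgeR). Of the kinase genes themselves, ULK2 stood at 85.3, 54.4 and 56.9 CPM in large-follicle and 81.0, 76.4 and 87.9 CPM in small-follicle libraries. Large-follicle libraries 2 and 3 were below all small-follicle libraries and library 1 was not, with a log2 difference of -0.32 (SE 0.16; adjusted p = 0.331 by edgeR). Without large-follicle library 1, ULK2 differed by -0.56 (SE 0.086) and passed (adjusted p = 0.0466 by edgeR, background 0.533%). ULK1 differed by -0.045 (SE 0.15), ATG13, a regulatory subunit gene, by -0.025 (SE 0.090) and ATG101, which encodes the partner of ATG13, by -0.20 (SE 0.14). ULK2 was the more abundant kinase gene, at 69.2% ± 3.59 of the summed ULK1 and ULK2 TPM in large-follicle and 72.9% ± 0.220 in small-follicle oocytes (SD, n = 3 each), without overlap (exact permutation p = 0.1, the smallest possible).

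The lipid kinase complex makes the phosphoinositide that marks the growing membrane, and all 6 of its genes had higher means in large-follicle oocytes, by 0.0054 to 0.18 on the log2 scale. BECN1, which encodes the regulatory subunit Beclin, stood at 63.8, 58.6 and 61.7 CPM in large-follicle libraries 1, 2 and 3 and at 52.5, 55.4 and 55.0 CPM in small-follicle libraries 1, 2 and 3. Its groups did not overlap, and the difference was 0.18 (SE 0.075; adjusted p = 0.261 by edgeR). PIK3C3, the catalytic subunit gene, stood at 35.7, 36.1 and 36.2 CPM in large-follicle and 31.9, 33.3 and 33.9 CPM in small-follicle libraries. Its groups did not overlap either, and the difference was 0.12 (SE 0.077). ATG14, whose protein directs the complex to autophagosomes, differed by 0.11 (SE 0.071) and AMBRA1, a Beclin partner, by 0.14 (SE 0.083), both without overlap. PIK3R4, the gene of the kinase's scaffold subunit, differed by 0.025 (SE 0.10), and UVRAG, which takes the place of ATG14 in an endosomal form of the complex, by 0.0054 (SE 0.12). The directions of these last 2 genes flipped under several alternatives, scaling by library size alone among them (-0.028 and -0.046).

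Genes of membrane growth include ATG2B, whose values spread widely among the large-follicle libraries. It encodes a lipid transfer protein that feeds the growing membrane, and stood at 431, 369 and 292 CPM in large-follicle libraries 1, 2 and 3 and at 324, 270 and 316 CPM in small-follicle libraries 1, 2 and 3. Large-follicle libraries 1 and 2 were above all small-follicle libraries and library 3 was not, with a difference of 0.27 (SE 0.13; adjusted p = 0.328 by edgeR). Its relative ATG2A was about 16 to 21 CPM in every library and differed by 0.23 (SE 0.11). ATG2B made up 94.4% of the summed ATG2A and ATG2B TPM in each group. WIPI2, whose protein reads the phosphoinositide mark and recruits ATG16L1, stood at 158, 170 and 153 CPM in large-follicle and 152, 153 and 150 CPM in small-follicle libraries, a difference of 0.086 (SE 0.070). WIPI1 was under 1.2 CPM in every library, and its interval of -1.13 to 0.53 leaves its difference undetermined. ATG9A, the lipid scramblase gene matched by identifier, stood at 15.6, 15.6 and 15.2 CPM in large-follicle and 15.5, 15.4 and 16.5 CPM in small-follicle libraries, a difference of -0.024 (SE 0.094).

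Genes of conjugation had a median log2 difference of -0.027, with 6 of 15 means higher and 9 lower in large-follicle oocytes. The groups did not overlap for 3 of them, ATG5 and ATG16L1 higher and ATG4B lower, against 12.1% and 11.6% of all genes in those directions. With library size alone none of the 15 lay wholly higher, and ATG4B, MAP1LC3A and GABARAP lay wholly lower (background 15.4%). On the deposited TPM, ATG5 lay wholly higher and ATG4B wholly lower (background 12.2%). The median turned to 0.0050 without large-follicle library 1 and to 0.013 without small-follicle library 2.

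The ATG4 proteases trim LC3 and GABARAP proteins before conjugation and remove them from the membrane afterwards. ATG4B, whose protein is the most active of them on LC3 in human cells, stood at 71.5, 55.6 and 73.2 CPM in large-follicle libraries 1, 2 and 3 and at 78.7, 82.6 and 80.8 CPM in small-follicle libraries 1, 2 and 3. The groups did not overlap, with library 2 the lowest, and the difference was -0.28 (SE 0.11; adjusted p = 0.211 by edgeR). ATG4A stood at 626, 568 and 545 CPM in large-follicle and 545, 557 and 564 CPM in small-follicle libraries, and its groups overlap (0.064, SE 0.074). ATG4A made up 74.6% ± 2.31 of the TPM summed over ATG4A, ATG4B, ATG4C and ATG4D in large-follicle and 70.7% ± 0.484 in small-follicle oocytes (SD, n = 3 each), and ATG4B 18.4% ± 2.38 in large-follicle and 22.0% ± 0.255 in small-follicle oocytes. For both shares the groups did not overlap, with the smallest exact permutation p that the design allows, 0.1. Both are parts of the same sum, so they are not independent, and they rest on the same ATG4B counts as the difference above. ATG4D differed by -0.048 (SE 0.11), and ATG4C, at 1.69 to 3.55 CPM, by -0.26 (SE 0.29).

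Among the other genes of the conjugation machinery, ATG16L1, ATG5, ATG12 and ATG3 differed by 0.083 or less in size on the log2 scale. ATG16L1 stood at 439, 468 and 452 CPM in large-follicle and 413, 433 and 437 CPM in small-follicle libraries, and ATG5, which joins ATG12 and ATG16L1 in the complex that attaches LC3, at 150, 148 and 150 CPM in large-follicle and 141, 146 and 138 CPM in small-follicle libraries. In both the large-follicle values were all higher, by 0.083 (SE 0.067) and 0.075 (SE 0.066) on the log2 scale. ATG12 differed by -0.027 (SE 0.10). ATG7, the activating enzyme that serves both conjugation systems, stood at 43.4, 47.4 and 56.2 CPM in large-follicle and 57.2, 58.8 and 53.7 CPM in small-follicle libraries. Large-follicle libraries 1 and 2 were below all small-follicle libraries and library 3 was not (-0.22, SE 0.10; adjusted p = 0.293 by edgeR). ATG3, the conjugating enzyme for LC3, differed by 0.065 (SE 0.11). ATG10, the conjugating enzyme for ATG12, was at 0.436 to 1.11 CPM, and its interval of -0.96 to 0.98 leaves the difference undetermined.

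For LC3 and GABARAP proteins, the units attached to the membrane, the groups overlapped for all 5 genes. GABARAPL2 stood at 62.7, 60.8 and 83.3 CPM in large-follicle and 68.1, 73.2 and 67.0 CPM in small-follicle libraries, and MAP1LC3B at 133, 132 and 149 CPM in large-follicle and 134, 158 and 134 CPM in small-follicle libraries. The log2 differences of the 5 genes lay between -0.087 (MAP1LC3A) and 0.019 (GABARAPL1). All 5 of the 95% intervals lay within 0.5 log2 units of 0, against 54.9% of all genes tested. That background is not matched for abundance (median 73.7 TPM for the 5 genes, 18.4 TPM for all genes). The direction of MAP1LC3B, GABARAPL1 and GABARAPL2 flipped under at least 1 alternative each. GABARAPL2 made up 40.7% ± 3.07 of the TPM summed over the 5 genes in large-follicle and 40.4% ± 0.463 in small-follicle oocytes (SD, n = 3 each), and MAP1LC3B 23.8% ± 0.910 in large-follicle and 24.1% ± 1.39 in small-follicle oocytes. Reads of these closely related genes could have been shared in the authors' counting, which could change their proportions.

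The extremes of the 38 genes fell mostly in the large-follicle libraries, in each of the 3. Large-follicle library 1 was the highest of all 6 libraries for 12 genes and the lowest for 6, library 2 for 8 and 9, and library 3 for 8 and 7. Small-follicle library 1 was the highest for 2 and the lowest for 7, library 2 for 5 and 5, and library 3 for 3 and 4. Wider deviations in large-follicle libraries were not special to these genes. Over all genes tested, the median absolute log2 deviation from a gene's mean was 0.142 to 0.161 across large-follicle libraries. Small-follicle libraries had 0.0872 to 0.117 by the same measure. For the 38 genes this median was smaller in every library: 0.121 to 0.153 (large follicles), 0.0538 to 0.0682 (small follicles). These genes were also more abundant than all genes tested (median 47.9 against 18.4 TPM), and the part of abundance here was not tested. Among the genes highest in large-follicle library 3 were GABARAPL1, GABARAPL2 and ATG3. Without large-follicle library 3, which stood apart over all genes, edgeR called 5 of the 38 (13.2%), against a background of 13.2% of all genes (7.79% higher, 5.37% lower), with 2 large-follicle against 3 small-follicle libraries. ATG2B was the gene called higher in large-follicle oocytes there (0.39, SE 0.098; adjusted p = 0.0321). RETREG3 (-0.86, SE 0.18), ATG7 (-0.32, SE 0.077), ATG101 (-0.37, SE 0.10) and ATG4B (-0.36, SE 0.10) were called lower, with adjusted p of 0.0422, 0.0221, 0.0360 and 0.0422 by edgeR in that order.

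**Figure D4:**
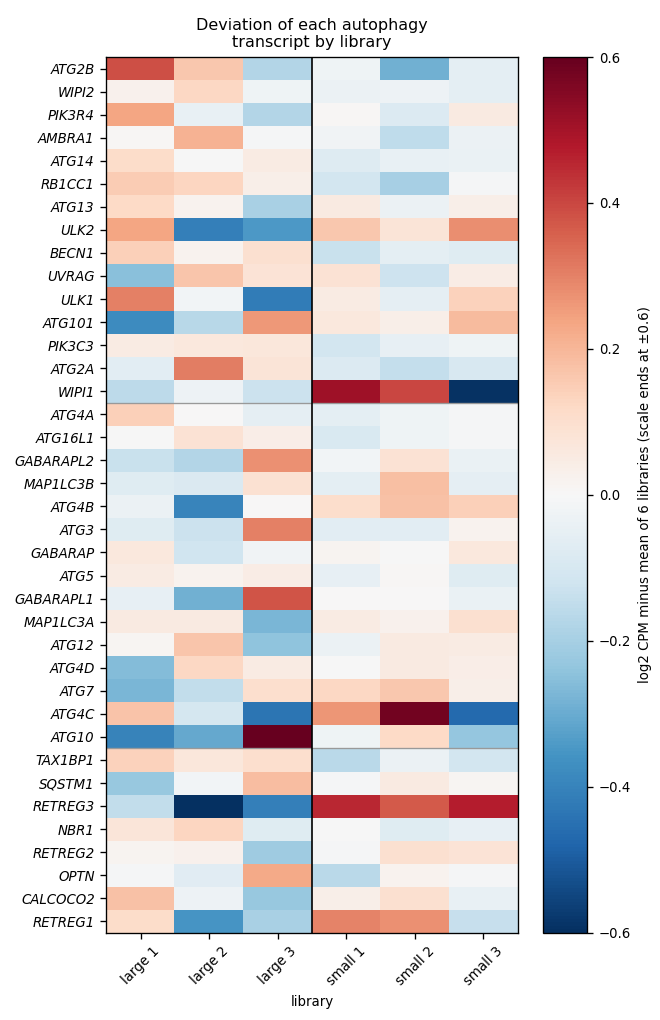
Log2 CPM of the 38 autophagy genes in each library minus the gene's mean over the 6 libraries, with large-follicle libraries left of small-follicle libraries; colours end at 0.6 in either direction. RETREG3 is blue in all large-follicle and red in all small-follicle libraries, whereas GABARAPL1, GABARAPL2 and ATG3 are red in large-follicle library 3 alone among the large-follicle libraries.

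Longer genes tended to have higher differences among the 38. Across these genes the log2 difference was correlated with the relative gene length implied by the authors' counts and TPM (Pearson r 0.327, Spearman rho 0.501, n = 38 genes). Over all 14091 genes the same values were 0.0504 and 0.111. The genes share the same 6 libraries, so they are not independent points. When each library was corrected for gene length, 2 of the 38 genes had an unadjusted p under 0.05, both with lower means in large-follicle oocytes (background 10.3% higher and 8.6% lower), and RETREG3 differed by -0.84 (adjusted p = 0.0461 by edgeR). With library size alone 1 gene lay higher and 4 lower at that p (background 6.33% and 11.6%), with DESeq2 2 and 4 (9.79% and 7.76%), and under the replicate block 0 and 3 (6.28% and 6.78%).

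The 38 genes lie on 17 chromosomes, with 7 on chromosome 12 and 7 on chromosome 2. Among neighbours, ATG13 and AMBRA1 on chromosome 2 are 19232 bases apart and differed by -0.025 (SE 0.090) and 0.14 (SE 0.083). The annotated spans of 9 of the 38 genes overlap another gene named in the table, SQSTM1, ATG4A, ATG7 and RETREG2 among them. Counting every annotated gene, 13 of the 38 overlap another, ATG4B and ATG5 included. The sources used here do not say whether reads were counted by strand, and such pairs could have shared reads.

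The wider pathway was followed in 4 further lists with 78 genes in the table, and none of them passed over all genes tested in edgeR. At an unadjusted p under 0.05 there were 11 of 78 (14.1%, against 18% of all genes tested), 2 with higher and 9 with lower means in large-follicle oocytes (background 9.85% and 8.17%). DESeq2 called 3 of the 78, FKBP8, TOLLIP and PINK1, all lower, where it called 5.12% of all genes. Without large-follicle library 3 edgeR called 10 of the 78, where it called 13.2% of all genes. FNIP1, CAB39, TBC1D14, RUBCN and WDFY3 were called higher and LAMTOR1, LAMTOR4, FKBP8, TOLLIP and PINK1 lower in that fit. The median log2 difference of the 78 genes was 0.012.

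Among further receptors and adaptors (16 genes, 2 with higher and 4 with lower means at an unadjusted p under 0.05, against 9.85% and 8.17% of all genes), FKBP8, a receptor for mitochondria, stood at 29.5, 31.4 and 44.4 CPM in large-follicle libraries 1, 2 and 3 and at 50.3, 53.5 and 50.7 CPM in small-follicle libraries 1, 2 and 3. All large-follicle libraries were lower, and the difference was -0.58 (SE 0.14; adjusted p = 0.104 by edgeR). TOLLIP, an adaptor for ubiquitin-tagged aggregates, stood at 36.5, 41.4 and 50.7 CPM in large-follicle and 58.0, 58.2 and 59.0 CPM in small-follicle libraries (-0.46, SE 0.11; adjusted p = 0.104 by edgeR). Here too the groups did not overlap, and large-follicle library 3 lay closest to the small-follicle libraries for both genes. Without it FKBP8 differed by -0.76 (SE 0.078) and TOLLIP by -0.59 (SE 0.080), and both passed (adjusted p = 0.00319 and 0.00565 by edgeR, in a fit that called 13.2% of all genes).

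Upstream nutrient and energy signalling (32 genes, 0 with higher and 4 with lower means at an unadjusted p under 0.05, against the same background) was led by LAMTOR1, part of the lysosomal anchor of the kinase MTOR, which differed by -0.32 (SE 0.11), and by TBC1D7, part of the TSC complex that restrains MTOR (-0.34, SE 0.12). Neither passed (adjusted p = 0.176 and 0.180 by edgeR). Without large-follicle library 3, LAMTOR1 did (-0.41, SE 0.0995, adjusted p = 0.0227 by edgeR), in a fit that called 13.2% of all genes. In autophagosome maturation and fusion (17 genes, 1 with an unadjusted p under 0.05) the genes with the smallest p were VPS33A, of the tethering complex at the lysosome (-0.42, SE 0.16), and RUBCN, an inhibitor of the lipid kinase complex (0.17, SE 0.082). Neither passed with all libraries, and RUBCN did without large-follicle library 3 (0.23, SE 0.063, adjusted p = 0.0357 by edgeR, background 13.2%). Further core genes (13 genes, 0 with an unadjusted p under 0.05) had TBC1D14 (0.16, SE 0.089) and ZFYVE1 (0.092, SE 0.065) at the head. Neither passed with all libraries, and TBC1D14 did without large-follicle library 3 (0.23, SE 0.066, adjusted p = 0.0429 by edgeR, background 13.2%).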

How the data were processed

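RNA-seq was done on denuded pig oocytes with a directional kit, per the labels' protocols. The table that the authors deposited holds raw counts of reads in 19296 rows and TPM values, the authors' scaling for gene length and depth. Sscrofa11.1 is the build that the submitters' processing notes name. Aligner, counter and annotation release: not given in the sources used here. In 25 rows a date stands in place of a gene name; they held a mean of 0.153% of reads and were left out. Of 4604 rows named by Ensembl identifier, 853 were given a symbol from a name table. Positions were looked up by symbol in RefSeq's genes for that assembly.

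Samples were grouped by title. Counts were tested across all genes with the quasi-likelihood F test of edgeR (version 4.0.16, R 4.3.3; TMM factors, filterByExpr, robust estimation, group alone). Log2 differences are large minus small follicles, with SE as the absolute log2 difference over the square root of F, and adjusted p-values are Benjamini-Hochberg over 14091 genes. DESeq2 1.42.0 was an alternative. CPM are TMM scaled; levels of different genes are compared only as deposited TPM. Log2 deviations used a prior count of 2. Family shares and marker sums were compared by exact two-sided permutation tests, 6 families and 4 marker lists in all, without adjustment.

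The members, the lists and the tests were chosen with earlier results of these data known. Values in every library are given for genes with an unadjusted p under 0.05 and the 2 most abundant of each class; others given so were named after their values were seen. From each further list come the genes that passed or else the 2 with the smallest p; PINK1, LAMTOR4, FNIP1, CAB39 and WDFY3 were named after their values were seen. Within groups, the chi-square of counts per degree of freedom was 10.7 to 22.4, above sampling noise, and all libraries were kept as separate replicates. The scripts were tested on simulated data. Alternatives were another scaling, DESeq2, other filters, each library left out, the replicate number as a block, thinning and a correction for gene length.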

Additional observations from a re-analysis of the deposited data

How the results depend on the processing

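The counts of genes called depended strongly on the settings. Across settings the median log2 difference ranged from -0.049 to 0.010 over all genes tested and from -0.058 to 0.037 over the autophagy genes. Genes called higher and lower were 2 and 7 as reported, 0 and 0 when edgeR used the size factors of DESeq2 (2525 at an unadjusted p under 0.05), and 400 and 322 with DESeq2. They were 9 and 43 without a filter, 7 and 24 after thinning, and 13 and 28 with the length correction. With library size alone 12 were lower, and at 5 CPM 18 were. Without single libraries they ranged from 0 to 1124 higher and from 0 to 775 lower. With the replicate number as a block they were 4 and 20. The deviations of same-numbered libraries from their group means had correlations of -0.158 to 0.00276. With 3 libraries per group these values cannot decide whether same-numbered libraries were paired. Under the block 0 autophagy genes had higher and RETREG3 and others lower means at an unadjusted p under 0.05, 3 in all.

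Of the autophagy genes, 1 was called lower (RETREG3) with DESeq2, without a filter, at 5 CPM, under the block, after thinning and with the length correction, with log2 differences of -0.85, -0.87, -0.87, -0.86, -0.86 and -0.84. Without single libraries 0 to 1 were called higher and 0 to 4 lower, and RETREG3 lay between -1.01 and -0.70. At an unadjusted p under 0.05, 1 was higher and 4 lower with library size alone, 4 lower with DESeq2, 0 higher with the length correction, and without single libraries 0 to 4 higher and 1 to 5 lower (4.84% to 15.7% and 5.17% to 13% of all genes). The initiation median was 0.034 with library size alone.

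Signs turned for 13 of 38 genes, none of which was called by any fit. PIK3R4 was -0.028, -0.00060, -0.0025 and -0.023 with library size alone, no filter, 5 CPM and the length correction. UVRAG was -0.046, -0.020, -0.021 and -0.015 in those, and -0.00024, -0.00019 and -0.00082 with DESeq2's size factors, DESeq2 and the block. GABARAPL1 was -0.029, -0.0058 and -0.0054 with library size alone, no filter and 5 CPM, ATG10 -0.041 with library size alone, ATG3 -0.0047 after thinning and GABARAPL2 0.0082 with the length correction. Without single libraries the ranges were -0.22 to 0.089 (ULK1), -0.093 to 0.042 (ATG13), -0.10 to 0.10 (PIK3R4), -0.095 to 0.12 (UVRAG), -0.075 to 0.15 (ATG3), -0.14 to 0.064 (ATG4D), -0.34 to 0.26 (ATG10), -0.13 to 0.062 (ATG12), -0.11 to 0.028 (MAP1LC3B), -0.17 to 0.17 (GABARAPL1), -0.18 to 0.062 (GABARAPL2), -0.15 to 0.064 (SQSTM1) and -0.14 to 0.034 (CALCOCO2). The cause was not tested. WIPI1, ATG10 and ATG4C had few reads, with counts of 6, 9 and 14 in that order in large-follicle library 3. The part of depth in their values was not tested.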
